A study of Rattus norvegicus with 23 samples.

Results

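The motile cilium genes are 88 genes of the array's 25597 gene symbols, picked by symbol: those that begin with Cfap, Dnah, Dnai, Dnal, Tekt, Rsph, Ift or Spag followed by a digit, plus the regulators Foxj1, Mcidas, Ccno and Rfx3. All 88 passed the filter on dim probes and were tested, and 77 of them were well above background on every one of the 23 arrays. The names carry some genes that are not ciliary, among them Spag5, a mitotic spindle protein, and the Spag11 genes, which encode defensin-like proteins of the epididymis.

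Motile cilia cover the ciliated cells of the airways, where their beat moves mucus and trapped particles out of the lung. A motile cilium is built around microtubule doublets that carry outer and inner dynein arms, the motors, with radial spokes and a central apparatus that coordinate them, tektins and other inner proteins that stiffen the doublets, and intraflagellar transport trains that carry parts to and from the tip. Foxj1 and the RFX factors switch on this gene set in cells that form motile cilia, and Mcidas and Ccno act earlier, when such cells make their many basal bodies.

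RNA came from the accessory lung lobe of male F344 rats given as 19 months old, and was analysed on single-colour Agilent arrays with 1 array per rat. Exposed rats breathed a nanostructured titanium dioxide (TiO2) aerosol at 10 mg/m3 through the nose during 4 weeks, on 5 days of each week and for 6 hours of each of those days, and control rats breathed filtered air. Lungs were taken at the end of exposure (D0; 6 control and 5 exposed rats) or 28 days later (D28; 6 control and 6 exposed rats). The labels name no altered gene and no other agent for any group. The comparison asks whether the ciliary gene set of the aged lung differed after the aerosol, at once and after the recovery time.

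Before normalization, the 75th percentile of the processed signal lay between 1383 and 3470 over the arrays, and between 69.5% and 77.8% of the spots were well above background. No 2 arrays were the same, with correlations between 0.958 and 0.989. The arrays lay on 5 slides, 4 of which held both exposed and control rats. Slide 2 held a single array, Control_D28 replicate 4, which was also the only one read with a later scanner program. The type II pneumocyte list, which marks lung tissue, had a mean of 13.7 to 14.2 log2 units in every rat. All values below are log2 signals after quantile normalization, a log2 fold change is exposed minus control, and a gene was called when its Benjamini-Hochberg adjusted limma p was under 0.05 with a change of at least 1.5-fold.

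Only 2 of the 88 genes were called at D0, and none at D28. Spag16, part of the central apparatus, was the 1 gene called lower at D0, against 0.695% of all 23028 genes tested. Spag5 was the 1 gene called higher, against 1.09% of all genes. At D28, 0 members were called lower and 0 higher, where 0.269% and 0.486% of all genes were called. Below that threshold the directions were unequal. At D0, 63 of the 88 genes had a log2 fold change under 0 (71.6%, against 50.1% of all genes), and their median was -0.15. At D28 it was 68 of 88 (77.3%, against 51.1% of all genes), with a median of -0.19. The median over all genes was within 0.01 of 0 on both days, and 54 of the 88 genes were lower on both days while 11 were higher on both. Without the 4 members that were well above background on 4 arrays or fewer, 63 and 64 of 84 were under 0. Of the 35 members with more than 1 probe, 19 had probes that pointed both ways at D0 and 12 at D28.

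The unadjusted limma p, from the same fit and fold changes, leaned the same way and is not separate support. At D0, 15 members had an unadjusted p under 0.05 and a lower level in exposed rats (17.0% of them, where 6.34% of all genes did), and 1 member, Spag5, had one with a higher level, where 5.61% of all genes did. At D28, 24 members were lower by this measure (27.3%, where 6.18% of all genes were) and 0 were higher, where 4.82% of all genes were. The members varied together from rat to rat (described below), so neither these counts nor the signs above come from independent genes. The D0 count rested heavily on 1 rat: without Exposed_D0 replicate 4 it was 3 and the median log2 fold change was -0.07, with 54 genes under 0. Single genes also came closer to 0 at D0 without this rat, among them Rfx3 (-0.04), Dnah5 (-0.17), Tekt1 (-0.13), Tekt4 (-0.11), Cfap43 (-0.12) and Ift81 (-0.16), while Rsph3 went to 0.39. The same count at D0 was 8 without Control_D0 replicate 2 and 8 without Control_D0 replicate 6. At D28 the count stayed between 17 and 27 whichever array was left out, and without Control_D28 replicate 4, the array alone on its slide, it was 27 with a median of -0.27.

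Levels that did not overlap between groups were rare. At D0, 4 members lay lower in all 5 exposed rats than in all 6 controls (2.37% of all genes did), namely Ift81, Cfap299, Cfap57 and Cfap161, and 0 lay higher (1.94% of all genes did). At D28 only Rsph10b was lower without overlap (0.543% of all genes), and 0 were higher (0.677% of all genes). No member's exposure effect was called as different between D0 and D28, where 0.0304% of all genes were, and 0 members passed an unadjusted p under 0.05 for that difference, where 3.44% of all genes did. Between the controls of D28 and D0, 0 members were called, where 0.608% of all genes were, and 6 had an unadjusted p under 0.05, where 13.3% of all genes did. The median shift of the 88 genes between these control groups was 0.01.

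**Figure D1:**
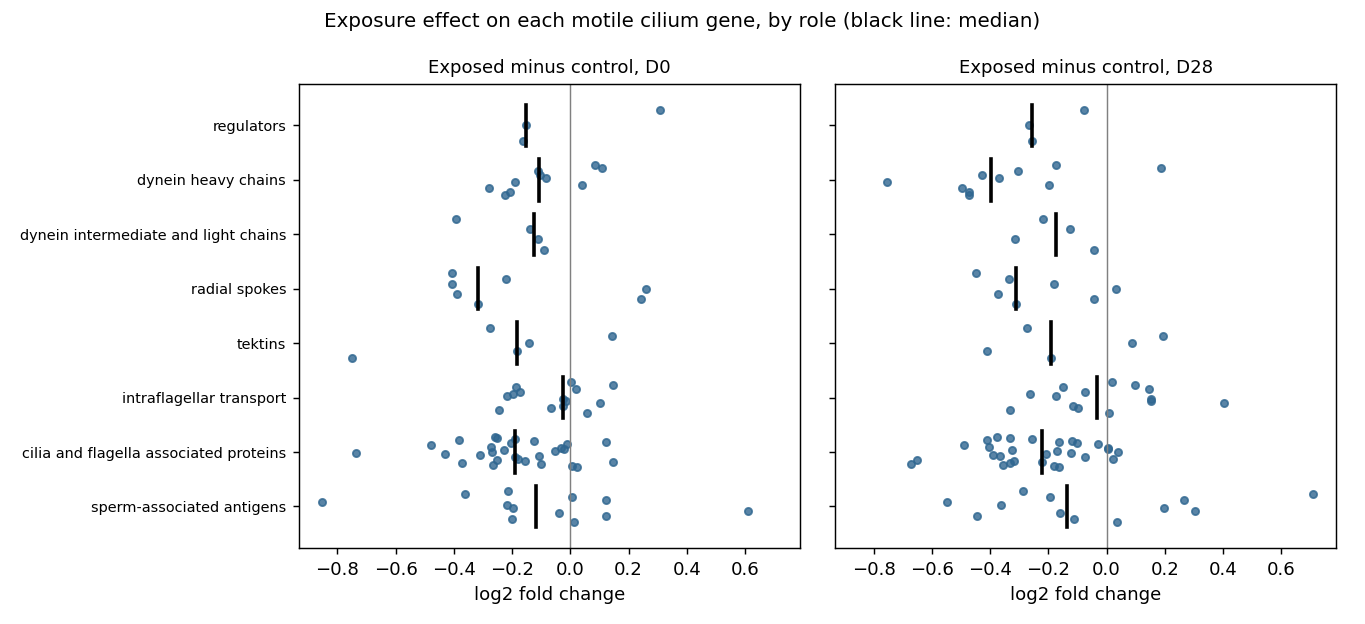
Log2 fold change (x axis, exposed minus control) of the 84 motile cilium genes for which a fold change is given, at D0 (left) and D28 (right), sorted by role, with a point per gene and a black line at the median of each role. The points of most roles sit left of 0, with radial spoke medians at -0.32 and -0.31, while intraflagellar transport genes centre on 0.

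Among the regulators, Foxj1, the master factor of motile ciliogenesis, was measured well above background in every rat. Its level in the D0 controls ranged from 9.84 to 10.06 with a median of 9.94, and the exposed rats at D0 had 9.58, 9.77, 9.88, 9.63 and 10.09. The 3 lowest D0 values belonged to exposed rats, but so did the highest. At D28 the controls ran from 9.56 to 10.17 (median 9.96) and the exposed rats from 9.45 to 9.85 (median 9.71), so the groups overlapped. The log2 fold change of Foxj1 was -0.15 (SE 0.11, limma adjusted p = 0.712) at D0 and -0.27 (SE 0.10, limma adjusted p = 0.278) at D28, neither past the threshold. Its 2 probes gave different answers: one differed by -0.39 at D0 and -0.46 at D28, the other by 0.08 and -0.08.

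Rfx3, which partners with Foxj1 at ciliary genes, had log2 fold changes of -0.16 (SE 0.14) at D0 and -0.26 (SE 0.14) at D28, with adjusted p of 0.827 and 0.532 by limma. Ccno, a cyclin-like protein needed for centriole multiplication, stood at 0.31 (SE 0.16) at D0 and -0.08 (SE 0.15) at D28, with adjusted p of 0.489 and 0.931 by limma. At D0, 4 of the 5 exposed rats had more Ccno signal than any control. Mcidas, the coactivator at the head of the multiciliation programme, was well above background on 4 of the 23 arrays, so no fold change is given for it; the same holds for Cfap97d1, Dnah17 and Spag6l, which were well above background on 1, 2 and 0 arrays.

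RFX factors are known to bind X-boxes, short paired sites in the promoters of ciliary genes, and forkhead factors such as Foxj1 are known to bind a TGTTTAC core. The 250 bases before the start of 70 of the 88 genes could be read from RefSeq (GRCr8) and were searched on both strands. The arms GTNNCC and GGNNAC set 1 to 3 bases apart, a pair that reads the same on both strands, occurred in 9 of the 70 windows (12.9%), against 2.77% of the windows of all 27457 genes. Among the 9 were Spag5, the spindle protein, and Spag6l, which was well above background on 0 arrays. The single arm GTTGCC, which overlaps that pair, occurred in 22 of 70 (31.4%, against 9.9% of all), and TGTTTAC in 2 of 70 (2.86%, against 3.25% of all). Such a match is a description of letters, not a binding site. Of the 24 searched genes that varied together most closely between rats (r above 0.5, described below), 1 held the pair, and of the other 46, 8 did. The pair is shown in capitals with its flanks, sense strand from 5′ to 3′, for 4 genes, a pair of inner-arm dynein heavy chains, a dynein assembly factor and a regulator, so that the spacing and the agreement of the letters can be read.
Dnah2, chr10:54766035-54766094, minus strand, pair 45 to 32 bases before the start: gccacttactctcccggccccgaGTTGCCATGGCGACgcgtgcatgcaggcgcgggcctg
Dnah12, chr16:1944667-1944726, plus strand, pair 62 to 49 bases before the start: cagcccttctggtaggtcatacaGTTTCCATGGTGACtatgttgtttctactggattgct
Cfap298, chr11:43677437-43677497, minus strand, pair 92 to 78 bases before the start: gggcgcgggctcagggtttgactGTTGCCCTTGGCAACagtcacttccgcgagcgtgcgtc
Ccno, chr2:46363824-46363861, plus strand, pair 249 to 236 bases before the start: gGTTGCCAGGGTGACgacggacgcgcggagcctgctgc
In Dnah2 and Dnah12 the pair lay close to the start, in Ccno at the far end of the window. Cfap298 held another pair, not shown, 231 to 218 bases before the start. Of the ciliated-cell genes outside the rule, described below, 7 of 39 windows (17.9%) held the pair, 16 (41.0%) GTTGCC and 5 (12.8%) TGTTTAC. None of the 4 genes shown was called on either day.

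Dynein heavy chains are the motor subunits of the arms. Of the 10 with a fold change, 7 were below 0 at D0 (median -0.11) and 9 at D28 (median -0.40). At D28, 3 of the 10 had an unadjusted p under 0.05 and a lower level (6.18% of all genes did), namely Dnah2, Dnah7 and Dnah11. Dnah5, the outer-arm heavy chain whose loss causes primary ciliary dyskinesia, ranged from 4.95 to 5.43 in the D0 controls (median 5.24), while the exposed rats at D0 had 5.06, 4.82, 5.76, 4.48 and 4.54. Exposed rats thus held both the highest and the 3 lowest values, and the log2 fold change was -0.28 (SE 0.26, limma adjusted p = 0.849). At D28 the controls spanned 4.86 to 6.01 (median 5.35) and the exposed rats 3.88 to 5.52 (median 5.16), a log2 fold change of -0.50 (SE 0.25, limma adjusted p = 0.498). Of its 3 probes, the one well above background on 16 arrays differed by -0.98 at D28, and the others by -0.25 and -0.26.

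Dnah2, an inner-arm heavy chain, had the lowest D28 value of its class, at -0.76 (SE 0.22, limma adjusted p = 0.109). That figure averages a probe well above background on only 4 arrays, at -1.38, with one well above background on all 23, at -0.13. Dnah10, another inner-arm chain, was the only one of the 10 above 0 at D28, at 0.19 (SE 0.19). Its 1 probe had a mean signal of 15.87, where the next brightest heavy chain probe, of Dnah12, had 11.42. Whether the Dnah10 probe was saturated or read other RNA was not tested. The intermediate and light chains, which hold the motors to the doublets, were below 0 in 4 of 4 genes on both days, with medians of -0.12 and -0.17. Dnai1, an outer-arm intermediate chain, was the lowest at D0 (-0.39, SE 0.19, limma adjusted p = 0.406), and Dnal1, an outer-arm light chain, at D28 (-0.32, SE 0.14, limma adjusted p = 0.407). Dnal4 lay nearest to 0 on both days, at -0.09 and -0.04.

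Radial spoke genes, whose products pass signals from the central apparatus to the dynein arms, had the lowest median of any role at D0. Of 7 genes, 5 were below 0 at D0 (median -0.32) and 6 of 7 at D28 (median -0.31). Of these, 5 at D0 and 4 at D28 had an unadjusted p under 0.05, where 6.34% and 6.18% of all genes were lower by it. Rsph1, a spoke head protein with a probe at chr20:9633454-9633513 (rn4, as the array files give it), had 11.65 to 12.10 in the D0 controls (median 11.72), and 11.47, 11.46, 11.69, 10.81 and 11.56 in the exposed rats. Of the 5 exposed rats, 4 were lower than every control. At D28 the controls had 11.62 to 12.13 (median 11.86) and the exposed rats 11.02 to 11.68 (median 11.42), with 5 of 6 below every control. The log2 fold change was -0.41 (SE 0.14, limma adjusted p = 0.175) at D0 and -0.45 (SE 0.14, limma adjusted p = 0.131) at D28, so Rsph1 did not pass on either day. Without Exposed_D0 replicate 4, its lowest rat, the D0 value was -0.26 (limma adjusted p = 0.498).

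Its partners in the spoke head gave like values. Rsph9 stood at -0.32 and -0.31 (SE 0.13 on both days), and Rsph4a at -0.39 and -0.37 (SE 0.17 and 0.16), with limma adjusted p between 0.306 and 0.360 for both genes. Rsph14 had the lowest D0 value of the role, -0.41 (SE 0.17, limma adjusted p = 0.292), and -0.18 at D28. The D28 value averages 2 probes, both well above background on all 23 arrays, that differed by 0.18 and -0.54. Rsph10b at D28 was 11.92 to 12.11 in the controls (median 11.95) and 11.50 to 11.82 in the exposed rats (median 11.64). This is the pair of D28 groups without overlap named above, yet the difference of -0.34 (SE 0.10) had a limma adjusted p of 0.098. Rsph3 was the highest of the role, 0.26 (SE 0.21) at D0 and 0.03 at D28. One of its 2 probes was well above background on 0 arrays, and the probe that was well above background on all 23 arrays differed by -0.16 and -0.29.

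Tektins, filament proteins inside the doublets, were below 0 in 4 of 5 genes at D0 and 3 of 5 at D28. Tekt5 had the second lowest D0 value of all 88 genes, -0.75 (SE 0.24, limma adjusted p = 0.121). Its D0 controls ranged from 6.16 to 6.91 (median 6.60) and its exposed rats had 6.23, 6.15, 5.46, 5.44 and 6.05, 4 of them below every control. At D28 the difference was -0.19, with controls from 4.71 to 6.38 on both sides of all 6 exposed rats (5.05 to 6.01). Tekt4 was the reverse: -0.18 (SE 0.11) at D0 and -0.41 (SE 0.11, limma adjusted p = 0.069) at D28, when its controls ran from 10.74 to 11.07 (median 10.86) and its exposed rats from 10.31 to 10.75 (median 10.40). Of the 6 exposed rats, 5 lay below every D28 control. Tekt2 was the highest of the role on both days, at 0.14 (SE 0.12) and 0.19 (SE 0.11).

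Intraflagellar transport genes, which serve primary as well as motile cilia, were spread around 0. Of 14 genes, 9 were below 0 at D0 and 7 of 14 at D28, with medians of -0.02 and -0.03. Ift81, a subunit of the anterograde B train, was the lowest on both days, at -0.25 (SE 0.13, limma adjusted p = 0.516) and -0.33 (SE 0.13, limma adjusted p = 0.258). Its exposed rats at D0 ranged from 7.17 to 7.63 against 7.67 to 7.90 in controls. Ift140, of the retrograde A train, was the highest at D0 (0.15, SE 0.17), and Ift57 at D28 (0.40, SE 0.45). The level of Ift57 varied by an SD of 0.82 between rats of a group, more than its difference.

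The Cfap genes, a mixed class of axonemal proteins named for their place in cilia and flagella, were the largest class. Of the 29 with a fold change, 25 were below 0 on each day, with medians of -0.19 and -0.22. An unadjusted p under 0.05 with a lower level was found for 5 at D0 and 8 at D28 (6.34% and 6.18% of all genes). On either day 0 had one with a higher level (5.61% and 4.82% of all genes). Cfap46, a protein of the central apparatus, was the lowest at D0, at -0.74 (SE 0.30, limma adjusted p = 0.275), and stood at -0.12 at D28. Its D0 value was -0.42 (limma adjusted p = 0.683) without Exposed_D0 replicate 4, and its 2 probes differed at D0 by -0.20 and, for the one well above background on 17 arrays, -1.27. Cfap45, a protein of the doublet lumen, was the highest at D28, at 0.04 (SE 0.22), after -0.27 at D0. Cfap43, which tethers dynein, had -0.23 (SE 0.14) and -0.32 (SE 0.13). Cfap299, chosen here after its values were seen, had -0.48 (SE 0.14, limma adjusted p = 0.085) at D0 and -0.49 (SE 0.14, limma adjusted p = 0.089) at D28. Its exposed rats at D0 had 9.56, 9.40, 9.56, 8.95 and 9.61, all under the lowest control at 9.65.

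The Spag genes held both called members, 1 in each direction. Spag16 had 6.14 to 6.90 in the D0 controls (median 6.52) and 6.25, 5.82, 5.56, 5.33 and 5.44 in the exposed rats. Of the 5 exposed rats, 4 were lower than every control, and 1 fell within their range. Spag16 fell by 0.85 on the log2 scale at D0 (SE 0.20, limma adjusted p = 0.018), which is 1.81-fold lower. It lay lower on each of the 4 slides that held exposed and control rats of D0, by 0.65 to 1.16 log2 units. At D28 the controls had 5.76 to 6.69 (median 6.36) and the exposed rats 5.26 to 6.35 (median 5.83), a log2 fold change of -0.55 (SE 0.19, limma adjusted p = 0.197) that did not pass. Within slides it was -0.58 on slide 1, -0.84 on slide 3 and 0.14 on slide 5 at D28. The D0 call was lost without Exposed_D0 replicate 4 (-0.77, limma adjusted p = 0.063) and without Exposed_D0 replicate 5 (-0.80, limma adjusted p = 0.056). The gene had 1 probe, at chr9:69738009-69738068 (rn4).

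Spag5, also called astrin, is the spindle protein. Its D0 controls ranged from 6.35 to 7.25 (median 6.73) and its exposed rats had 7.58, 7.31, 7.28, 7.62 and 7.10, 4 of them above every control. Spag5 rose by 0.61 on the log2 scale (SE 0.16, limma adjusted p = 0.041), 1.53-fold. Its 2 probes disagreed in size, at 1.05 and 0.17. At D28 the difference was 0.30 (SE 0.15, limma adjusted p = 0.494), with exposed rats from 7.11 to 7.51 and controls from 6.34 to 7.21. A list of 10 cell cycle genes stood higher in 10 of 10 genes on both days, with medians of 0.99 at D0 and 0.40 at D28, and 6 of them rose at D0 (Mki67, Top2a, Ccnb1, Cdk1, Plk1 and Bub1). The Spag5 call was lost without any of 9 arrays, Control_D0 replicates 2, 3, 4 and 6, Exposed_D0 replicates 1, 2, 3 and 4 and Exposed_D28 replicate 1, with log2 fold changes between 0.53 and 0.64 and limma adjusted p between 0.052 and 0.123.

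The other Spag genes did not pass. Spag11a had the highest D28 value of all 88 genes, 0.71, but with an SE of 0.85 and an SD of 1.54 between rats of a group, and it was well above background on 18 arrays. Spag4, a nuclear envelope protein, stood at -0.20 (SE 0.29) and 0.20 (SE 0.27). Spag1, Spag6 and Spag17, which serve dynein assembly and the central apparatus, stood at -0.22, -0.04 and -0.22 at D0 and at -0.29, -0.16 and -0.36 at D28.

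**Figure D2:**
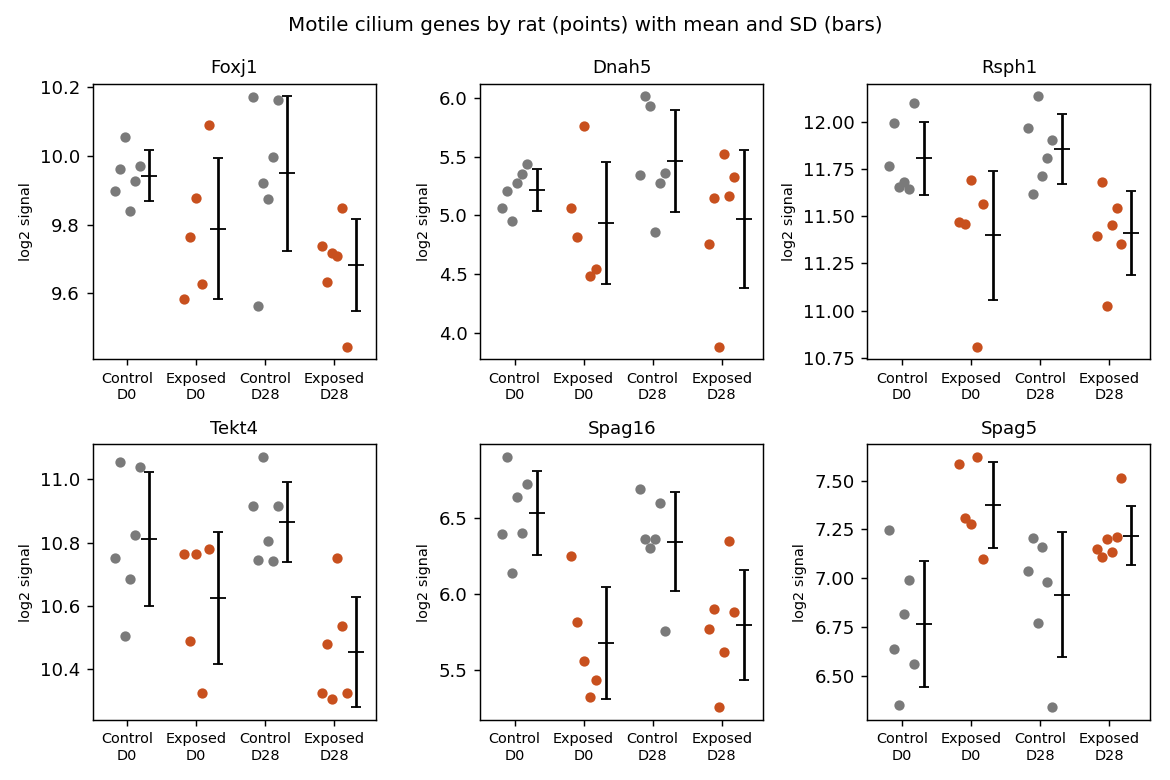
Log2 signal (y axis, a scale per gene) of Foxj1, Dnah5, Rsph1, Tekt4, Spag16 and Spag5 in each rat of the 4 groups, controls in grey and exposed rats in orange, with the mean and SD beside the points. Exposed rats sit lower, with overlap, in Rsph1 on both days (-0.41 and -0.45) and in Spag16, most at D0, while Spag5 runs the other way.

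Genes of the same cilium can also be followed by how they move together from rat to rat. For each gene, the group means were removed and the Pearson r between its level and the mean of the other motile cilium genes was taken over the 23 arrays. These points share arrays, normalization and slides, so r is given as a description. The median r of the 88 genes was 0.39 (quartiles 0.22 and 0.56), against 0.05 for all 23028 genes, and 30 of 88 (34.1%) exceeded 0.5, against 4.78% of all genes. With the slide means removed as well, the medians were 0.51 and 0.05. A raised r was not particular to ciliary genes. Of the lists described below, secretory-cell genes had a median r of 0.33 and neutrophil genes 0.32. Type II and type I pneumocyte genes had 0.25 and 0.21. Macrophage, basal-cell and smooth muscle genes had 0.09, 0.07 and 0.05, cell cycle genes -0.13 and airway cartilage genes -0.15. Scgb1a1, a secretory-cell gene chosen here after its values were seen, had 0.80.

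These 5 genes followed the rest most closely: Cfap43 (r = 0.90), Rsph1 (0.86), Tekt1 (0.84), Rfx3 (0.79) and Rsph9 (0.78). They come from 4 different roles, a dynein tether, the spoke head, the doublet and a regulator. In each of these 5 genes Exposed_D0 replicate 4 was the lowest exposed rat of D0, so this rat weighs on their r. With a single array left out in turn, the median r of the motile cilium genes ran from 0.29 to 0.42. The r of single genes was not computed without this rat. By role the median r was highest for the radial spokes at 0.72, followed by Cfap genes at 0.50, dynein intermediate and light chains at 0.46 and tektins at 0.45. Dynein heavy chains had 0.30, intraflagellar transport 0.26, regulators 0.21 and Spag genes 0.10. The 5 lowest were Spag5 (-0.30), Spag11a (-0.29), Spag4 (-0.27), Ccno (-0.21) and Ift57 (-0.16), 3 of them Spag genes. Foxj1 itself had 0.37 and Dnah5 0.43.

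Outside the set, the 5 genes with the highest r were Dnali1 (0.94), a light intermediate chain of the inner dynein arm, Catip (0.91), a protein of ciliogenesis, Agbl2 (0.89), a tubulin-modifying carboxypeptidase, Armc4 (0.88), an outer-arm docking protein, and Hdc (0.87), histidine decarboxylase. Catip differed by -0.44 (SE 0.12, limma adjusted p = 0.046) at D0 and -0.41 (SE 0.11, limma adjusted p = 0.073) at D28, under the 1.5-fold limit. Dnali1 had -0.38 (SE 0.12) and -0.29 (SE 0.11), Agbl2 -0.05 and -0.22, and Armc4 -0.25 and -0.28. Hdc stood at -0.40 (SE 0.14) at D0 and 0.11 (SE 0.13) at D28, and none of these 4 was called.

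**Figure D3:**
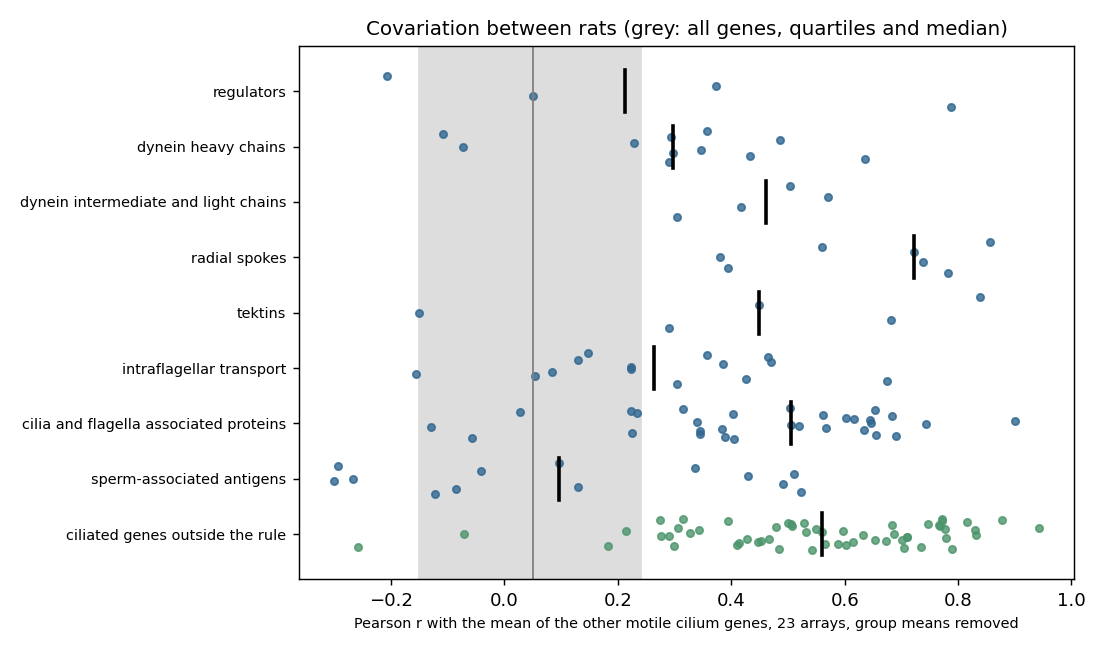
Pearson r (x axis) of each motile cilium gene with the mean of the others over 23 arrays after removal of group means, a blue point per gene by role, with 57 further ciliated-cell genes in green, black lines at medians and the quartiles of all genes shaded in grey. Radial spokes centre on 0.72 and the green genes on 0.56, well to the right of the shaded band, while Spag genes centre on 0.10.

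A list of 60 ciliated-cell genes outside the naming rule, of which 57 were measured, served as the wider pathway. This list was chosen with earlier results of these data known, so its values are a description and not independent support. Dnali1 and Armc4, named above, belong to it. At D0, 55 of the 57 were below 0 with a median of -0.27, 20 with an unadjusted p under 0.05. At D28, 52 were below 0 with a median of -0.28, 25 with such a p. On either day 0 had one with a higher level, and 0 were called. Of all genes, 50.1% at D0 and 51.1% at D28 were below 0. With an unadjusted limma p under 0.05, 6.34% and 6.18% of all genes were lower, and 5.61% and 4.82% higher. Their median r with the motile cilium genes was 0.56. Without Exposed_D0 replicate 4 the D0 figures were 50 below 0, a median of -0.16 and 8 with an unadjusted p under 0.05. Without Control_D28 replicate 4 the D28 figures were 55 below 0, a median of -0.30 and 29.

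Averaged over the 88 genes, the controls had 7.71 ± 0.07 (SD, n = 6) at D0 and 7.70 ± 0.13 (SD, n = 6) at D28, and the exposed rats 7.59 ± 0.17 (SD, n = 5) and 7.51 ± 0.06 (SD, n = 6). At D0 4 of 5 exposed rats and at D28 6 of 6 were below the median of their controls, and 2 and 3 were below every control. Exposed_D0 replicate 4 was the lowest of all rats, at 7.29. Within slides, the median difference over the 88 genes at D0 was -0.11 on slide 1, -0.41 on slide 3, -0.04 on slide 4 and -0.12 on slide 5, and at D28 -0.31 on slide 1, -0.28 on slide 3 and -0.05 on slide 5. All of these values are below 0, while their size varied; slide 3 held Exposed_D0 replicate 4.

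Marker lists of other cells were read beside these values. In bulk tissue, fewer cells of a type and less RNA per cell cannot be told apart. All 8 of 8 type I pneumocyte genes were below 0 on both days (medians -0.31 and -0.29); the mean of the list lay at 13.1 to 13.2 in D0 controls and 12.7 to 13.0 in exposed rats, and at 13.1 to 13.4 and 12.9 to 13.1 at D28. Smooth muscle genes were below 0 in 8 of 8 at D0 (median -0.27) and in 4 of 8 at D28 (median -0.03). Type II pneumocyte genes were above 0 in 9 of 10 and 8 of 10 (medians 0.24 and 0.19), and macrophage genes in 7 of 8 and 6 of 8 (medians 0.47 and 0.27), with the mean of the macrophage list at 8.43 to 8.74 in D0 controls and 8.91 to 9.24 in exposed rats. Of these 4 lists 1 gene was called, the macrophage gene Siglec1, which rose at D0 by 0.89 (SE 0.16), and 0 were called at D28. Their part in the ciliary values was not tested.

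Genes of the cells next to ciliated cells in the airway lining did not follow one direction. Of 14 secretory-cell genes measured, 7 were above 0 on each day (medians 0.09 and -0.04). Of the called ones, Bpifb1, a secreted airway protein, rose by 2.30 (SE 0.28) at D0 and 1.21 (SE 0.26) at D28, and Gabrp by 1.25 (SE 0.26) at D0. Other genes of this list fell, the lowest standing at -1.03 at D0 and -0.91 at D28. At an unadjusted limma p under 0.05, 5 were higher and 4 lower at D0, and 2 higher and 3 lower at D28. Of all genes, 5.61% were higher and 6.34% lower at D0, and 4.82% higher and 6.18% lower at D28. Of 7 basal-cell genes measured, 5 were above 0 at D0 and 2 at D28 (medians 0.04 and -0.13). Aqp3, a water and glycerol channel and the 1 called gene of this list, rose by 2.29 (SE 0.50) at D0. The lowest basal-cell gene stood at -0.24 at D0 and -0.57 at D28. Airway cartilage genes had medians of -0.08 and -0.02, with list means between 3.74 and 4.88 in all rats, and neutrophil genes medians of -0.04 and -0.12. The part of how much airway each piece of lobe held was not tested.

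**Figure D4:**
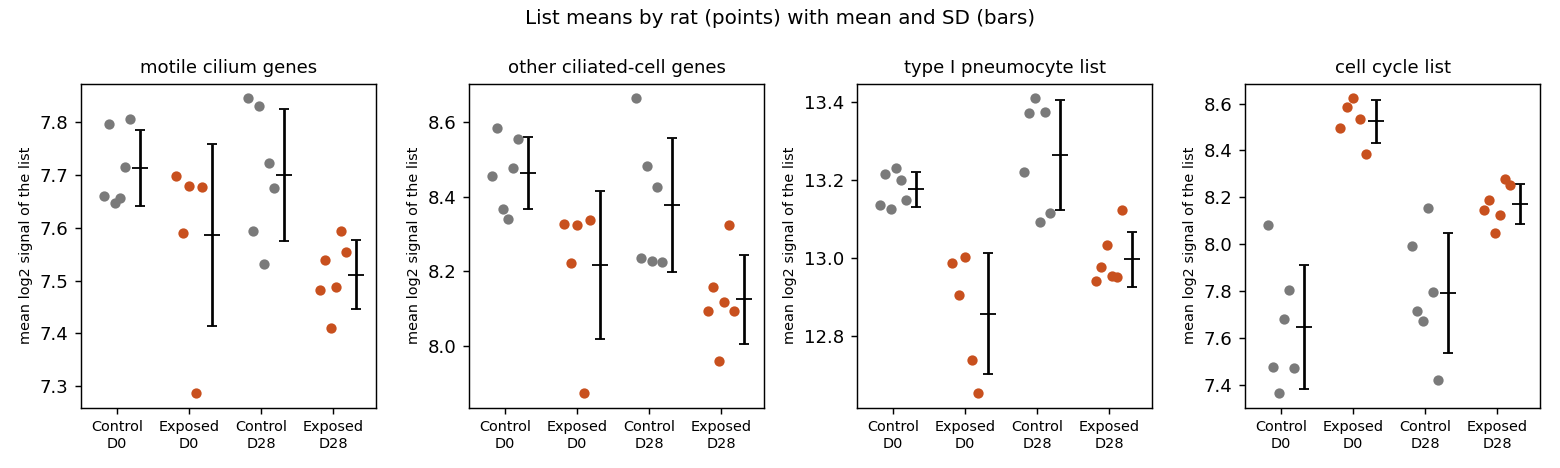
Mean log2 signal (y axis, a scale per list) of the 88 motile cilium genes, the 57 other ciliated-cell genes, the type I pneumocyte list and the cell cycle list in each rat, controls in grey and exposed rats in orange, with mean and SD beside the points. The mean of the 88 genes sits lower in exposed rats with overlap on both days, the 57 other ciliated-cell genes lie lower at D0 (7.87 to 8.34 against 8.34 to 8.58, just without overlap) and overlap at D28, 1 exposed rat of D0 lies far below the rest in the mean of the 88 genes at 7.29, and the cell cycle list is higher at D0 without overlap.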

How the data were processed

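Total RNA of 23 accessory lobes was labelled with cyanine 3 and hybridised to Agilent 60-mer arrays of 62976 spots; the groups came from the array titles. The deposited files are scanner output: spot intensity values that the authors extracted with Agilent Feature Extraction (11.0.1.1 on 22 arrays, 12.0.1.1 on 1, per the file headers), background-subtracted but not scaled between arrays, with probe positions on rn4. A deposited table of intensity values normalized by the authors served as an alternative. From the processed signal, log2 values were quantile normalized over the probes that, on 5 or more arrays, were brighter than 95% of the 308 negative control spots (40417 of 45598 probes), outlier spots were left out, probes were averaged per symbol, and 29 genes with a missing value were dropped, which left 23028 genes. limma 3.58.1 in R 4.3.3 fitted the 4 group means with 19 residual degrees of freedom and Benjamini-Hochberg adjustment over all genes. The number of arrays limits the precision.

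The fitting code was tested on simulated data. The members and lists were chosen with earlier results of these data known. Named genes were the regulators and Dnah5, every called gene, the highest and lowest of each role on each day, the 5 highest and 5 lowest r, the 5 highest r outside the set and the called list genes; others are said to be chosen later or belong to a count of 5 or fewer, a described role or a shown sequence. No fold change was given for 4 members well above background on 4 arrays or fewer. Replicate numbers did not pair the rats: deviations of same-numbered rats from their group means correlated at -0.22 to -0.12 at D0 and -0.17 to 0.46 at D28. The label source text of the exposed D28 arrays names another day than their titles; the titles were used. Design text gives 6 exposed rats per time, of which 5 arrays at D0 were analysed here. Promoters came from RefSeq (GRCr8), matched by symbol. Figures used matplotlib 3.10.9.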

Additional observations from a re-analysis of the deposited data

Results flagged for a closer look

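Of 44 sets of values, each a gene or the mean of the 88 genes in 1 group, 5 had a single rat far from the others by Dixon's test. For independent sets chance gives about 1 in 20. These sets were not independent, since 5 of the genes were those that followed the mean of the 88 most closely. Exposed_D0 replicate 4 was low in the mean of the motile cilium genes (7.29, nearest rat 7.59, ratio of gap to range 0.735) and in Rsph1 (10.81, nearest 11.46, ratio 0.737). Ccno had a low rat in the D0 controls, replicate 2 (5.89, nearest 6.25, ratio 0.65), and another in the exposed rats of D0, replicate 1 (6.18, nearest 6.63, ratio 0.753). Spag5 had a high rat in the exposed rats of D28, replicate 6 (7.51, nearest 7.21, ratio 0.748). The source of these values was not tested.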

How the results depend on the processing

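The D0 calls depended on the settings, while the sign of the median over the 88 genes did not. The settings reuse the same arrays and the genes vary together, so this constant sign is not independent support. Between rats of a group, the mean of the 88 genes had an SD of 0.11. Under the 10 other settings and with every single array left out, the median log2 fold change of the 88 genes stayed below 0 on both days: leaving out 1 array gave -0.18 to -0.07 at D0 and -0.27 to -0.15 at D28, with 54 to 71 and 65 to 74 genes under 0, 3 to 17 and 17 to 27 genes lower at an unadjusted p under 0.05, and a median r of 0.29 to 0.42. Against -0.15 and -0.19, the median was -0.08 at D0 with normexp and with the deposited table, -0.11 at D28 with normexp and -0.15 with the deposited table. Genes called with 1 array left out numbered 0 to 1 higher and 0 to 2 lower at D0, and 0 to 0 for either direction at D28, for the difference between days and between controls. With the other settings, Spag16 at D0 was called in 9 of 10 (-0.88 to -0.49, limma adjusted p 0.005 to 0.034; under 1.5-fold with normexp) and Spag5 in 6 of 10 (0.43 to 1.05, limma adjusted p 0.004 to 0.084). Calls higher at D0 fell to 0 with normexp background, the deposited table, the arrays of the day alone and the replicate block. Calls lower at D0 were 0 with normexp, and 2 with the filter for spots well above background (81 members) or with the replicate block, which added Tekt5. With slide as a block, 1 gene was lower at D28 (Dnah2, -0.85, limma adjusted p = 0.040), and the median r was 0.51. The replicate block changed no other call. The cause of these differences was not tested.

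Of the 27 named members with a fold change, those whose sign turned were called under none of the settings listed here. Rsph3 went to -0.049 at D0 and -0.061 at D28 with normexp, -0.056 and -0.075 with the deposited table, -0.16 and -0.29 with the stricter filter, -0.16 and -0.29 with the probe of highest signal, and -0.026 at D28 with 75th percentile scaling. Ift140 went to -0.0052 at D0 with normexp, -0.070 and -0.18 with the brightest probe, and -0.054 and -0.028 at D28 with the stricter filter and the slide block. Dnah5 at D0 was 0.042 and Dnal4 at D28 0.015 with the brightest probe, and Cfap45 at D28 was -0.21 with the slide block. With 1 array left out, values crossed 0 at D28 for Ccno (-0.16 to 0.017), Cfap45 (-0.22 to 0.12), Cfap46 (-0.33 to 0.0071), Dnal4 (-0.082 to 0.017), Ift140 (-0.030 to 0.16) and Rsph3 (-0.10 to 0.15), and at D0 for Ift57 (-0.16 to 0.31) and Spag11a (-0.69 to 0.12).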
